A study of Mus musculus with 9 samples.

Results

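The 9 genes described here are C1qa, C1qb, C1qc, Cx3cr1, Trem2, Csf1r, Tyrobp, Aif1 and P2ry12, chosen by name as genes of microglia. They are 9 of the 35498 genes to which the reads of the series were summed, and all 9 passed the filter on low counts that left 15773 genes for testing. RNA came from cortex of C57Bl/6 mouse embryos, dissected whole at E13.5. Wild type (WT) is labelled Smarca1 +/+ with Cre −/−, the Smarca1 knockout (Smarca1 KO) is Smarca1 −/− with Cre −/−, and the double knockout (DKO) is Smarca1 −/− with Cre +/−, with 3 libraries in each group. The series' design text names DKO as lacking Smarca5 as well as Smarca1, the 2 ATPases of the ISWI chromatin remodellers. Not given in the sources used here were the promoter that drives Cre, the exons deleted and the Smarca5 alleles of the Cre −/− groups, which leaves unknown in which cells Smarca5 was deleted. DKO differs from Smarca1 KO by the Cre allele and the loss of Smarca5, while both carry the Smarca1 deletion. Whether replicates came from separate embryos is not in the labels, and the spread that p-values rest on may be technical.

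Microglia are the resident macrophages of the brain. They descend from yolk sac progenitors, reach the embryonic brain with the early circulation and are a small minority among the neural progenitors and neurons of the embryonic cortex. They depend on Csf1r, the receptor for the growth factors Csf1 and Il34, sense neuronal signals through Cx3cr1 and P2ry12, take up debris through Trem2 and its adaptor Tyrobp, and are the main source of complement C1q in the brain.

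Counts over genes were 27466046 to 46007527 per library. Smarca5 was 77.2 to 84.4 CPM (counts scaled to a common library total, with TMM factors) in DKO, 262 to 270.7 CPM in WT and 212.2 to 245.8 CPM in Smarca1 KO. Its log2 difference was −1.54 ± 0.06 (SE) for DKO against Smarca1 KO (edgeR adjusted p = 2.99e-06). Smarca1 RNA summed over the gene was 35.3 to 43.8 CPM in Smarca1 KO and 36.4 to 37.8 CPM in WT (log2 difference 0.12 ± 0.07 (SE), edgeR adjusted p = 0.378). Since the deleted exons are not given, this gene-level sum does not check the Smarca1 label, and the groups are named as labelled. The summed level of 12 cortex markers was 1891 to 2450 TPM (a unit that takes transcript length into account). Hoxb2 and Hoxa5, genes of the hindbrain and spinal cord, were at 0 in all 9 libraries. Smarca1 KO replicate 1 and DKO replicate 1 stood apart. They held 653.7 and 709 TPM of 13 meninges genes, against 417.2 to 572.8 TPM in the other 7 libraries.

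Promoters of 6 of the 9 genes were matched in the RefSeq table, which covers 250 bases before to 50 after each start site on GRCm38.p6. C1qa, Tyrobp and Csf1r were not matched. The 5 below are shown because C1qb and C1qc lie in 1 cluster and were measured together, Cx3cr1 and Trem2 were the members called in DKO against both other groups, and P2ry12 was called in neither. Each reads 5′ to 3′ on the strand of its gene. Capitals mark GAGGAA or GGAAGT on either strand, the purine-rich core to which PU.1 and other ETS factors bind; the hits can overlap one another.
C1qb: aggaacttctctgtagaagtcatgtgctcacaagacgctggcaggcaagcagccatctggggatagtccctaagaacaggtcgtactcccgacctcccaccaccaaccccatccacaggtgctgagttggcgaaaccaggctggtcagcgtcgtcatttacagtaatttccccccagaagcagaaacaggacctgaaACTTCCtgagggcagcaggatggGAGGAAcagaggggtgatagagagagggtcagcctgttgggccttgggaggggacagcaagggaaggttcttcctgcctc
C1qc: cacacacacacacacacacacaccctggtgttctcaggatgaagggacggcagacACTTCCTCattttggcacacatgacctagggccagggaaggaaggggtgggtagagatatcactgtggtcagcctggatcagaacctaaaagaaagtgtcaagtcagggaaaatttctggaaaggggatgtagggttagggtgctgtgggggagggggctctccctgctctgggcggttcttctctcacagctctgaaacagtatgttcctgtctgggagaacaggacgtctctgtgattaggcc
Cx3cr1: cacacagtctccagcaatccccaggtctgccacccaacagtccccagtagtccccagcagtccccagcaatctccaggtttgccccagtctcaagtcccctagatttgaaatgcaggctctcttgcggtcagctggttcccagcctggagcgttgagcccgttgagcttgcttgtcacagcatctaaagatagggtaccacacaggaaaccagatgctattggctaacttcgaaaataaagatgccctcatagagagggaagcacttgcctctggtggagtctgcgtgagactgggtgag
Trem2: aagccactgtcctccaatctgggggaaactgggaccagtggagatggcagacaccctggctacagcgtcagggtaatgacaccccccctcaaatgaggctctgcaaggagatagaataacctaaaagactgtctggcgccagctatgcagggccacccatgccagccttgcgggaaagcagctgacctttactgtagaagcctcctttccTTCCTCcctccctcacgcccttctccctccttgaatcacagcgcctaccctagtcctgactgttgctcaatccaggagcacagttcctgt
P2ry12: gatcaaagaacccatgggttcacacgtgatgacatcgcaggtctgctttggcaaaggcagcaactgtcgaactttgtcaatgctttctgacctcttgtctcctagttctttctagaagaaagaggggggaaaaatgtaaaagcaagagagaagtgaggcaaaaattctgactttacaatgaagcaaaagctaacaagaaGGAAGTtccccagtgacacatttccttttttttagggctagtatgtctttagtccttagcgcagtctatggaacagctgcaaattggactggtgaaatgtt

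The C1qb window is chr4:136886151-136886450 and the C1qc window chr4:136892865-136893164, both on the minus strand. The Cx3cr1 window is chr9:120068247-120068546 on the minus strand. Trem2 is shown at chr17:48346151-48346450 on the plus strand and P2ry12 at chr3:59262936-59263235 on the minus strand. In C1qc the 2 motifs overlap on the reverse strand, from positions −195 and −193 relative to the start site. C1qb holds them apart, GGAAGT at −53 and GAGGAA at −30. Trem2 holds GAGGAA at −40 and P2ry12 holds GGAAGT at −51, while Cx3cr1, which rose in DKO, holds neither. GAGGAA was found in 4 of the 6 matched members and in 28.3% of 32851 promoters of the same length. GGAAGT was found in 3 of the 6 and in 23.8% of promoters. The ETS-IRF composite element, to which an ETS factor and an interferon regulatory factor bind jointly, was found in 0 of the 6 and in 2.7% of promoters. A match of letters is a description and not a bound site.

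All 9 genes were low in the tissue. Their mean over the 9 libraries lay between 3.13 TPM for Trem2 and 9.98 TPM for C1qa, higher than 65.5% to 72.1% of all genes in the table. In WT the order of levels was C1qb at 7.92 ± 1.01 TPM (SD, n = 3), Tyrobp at 7.31 ± 0.24, C1qa at 6.58 ± 0.30, Csf1r at 6.45 ± 0.21, C1qc at 5.69 ± 0.20, Cx3cr1 at 4.63 ± 0.31, Aif1 at 4.42 ± 0.81, P2ry12 at 3.92 ± 0.21 and Trem2 at 2.13 ± 0.79. The neighbours C1qb and Tyrobp, C1qa and Csf1r, Cx3cr1 and Aif1, and Aif1 and P2ry12 did not differ beyond their spread. In DKO the order was led by C1qa at 14.5 ± 2.72 TPM (SD, n = 3), C1qc at 12.01 ± 2.24, C1qb at 11.8 ± 1.27 and Tyrobp at 11.1 ± 2.63. Csf1r followed at 7.78 ± 1.35 TPM, Cx3cr1 at 7.73 ± 0.54, P2ry12 at 5.32 ± 1.86, Aif1 at 5.16 ± 1.07 and Trem2 at 4.84 ± 0.91. The 9 genes together made 48.7 to 49.6 TPM in WT, 50.4 to 64.9 TPM in Smarca1 KO and 67.0 to 87.3 TPM in DKO.

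**Figure D1:**
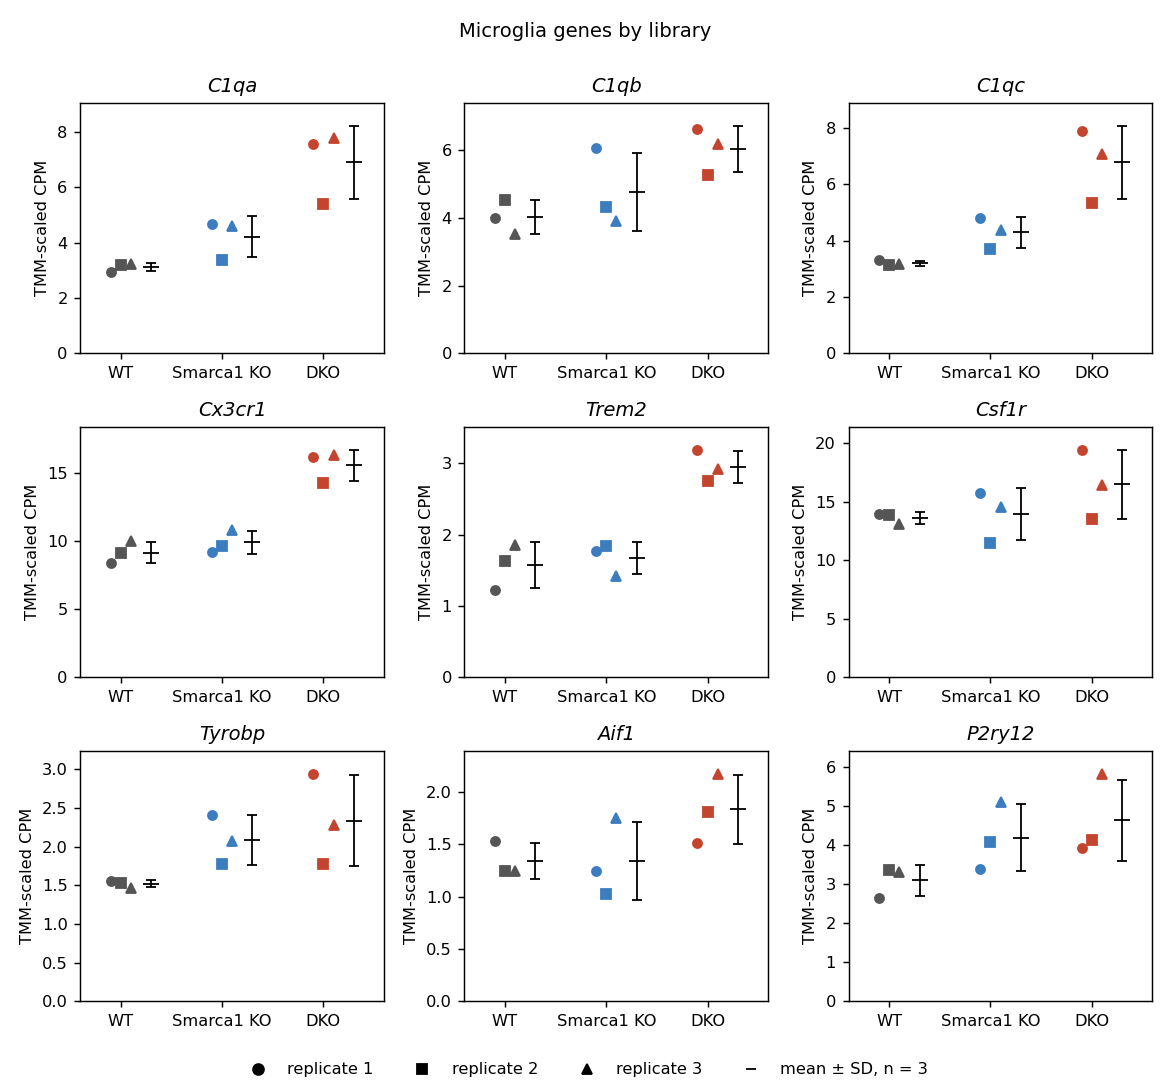
Each panel plots 1 gene, with TMM-scaled CPM on the vertical axis from 0 and the 3 groups on the horizontal axis. Points are libraries, shaped by replicate number, and bars are mean ± SD (n = 3). The 3 DKO libraries lie above all 6 others for C1qa, C1qc, Cx3cr1 and Trem2, and overlap some of them for C1qb, Csf1r, Tyrobp, Aif1 and P2ry12.

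Some of the microglia genes rose in DKO. Against Smarca1 KO, Cx3cr1 and Trem2 rose and the other 7 did not pass the test. That is 2 of 9 called up and 0 called down at an edgeR adjusted p under 0.05, where 1.73 percent of all genes tested were called up 2.66 percent down and 4.39 percent in either direction. Against WT, C1qa, C1qc, Cx3cr1 and Trem2 rose, 4 of 9, and 0 of 9 fell, against a background of 5.61 percent called up, 6.35 percent down and 12 percent in either direction. In bulk tissue, more cells of a type and more RNA per cell cannot be told apart, and neither can fewer cells and less RNA. Between Smarca1 KO and WT 0 of the 9 were called by edgeR, where 0.336 percent of genes were, 0.139 percent up and 0.197 percent down. DESeq2 and limma voom also called 0 of the 9 there, and 2 had an unadjusted p under 0.05 in edgeR, where 18.9 percent of all genes did. An unadjusted p under 0.05 was found for 4 members in DKO against Smarca1 KO, beside 18.4 percent of all genes, and for 7 in DKO against WT, beside 31 percent. The 3 comparisons share groups and are not independent of each other.

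The log2 difference was above 0 for 9 of 9 members in DKO against Smarca1 KO, with a median of 0.46 beside 0.004 over all genes, of which 51.1% were above 0. Against WT it was above 0 for 9 of 9, with a median of 0.62 beside 0.008 over all genes, of which 51.7% were above 0. Between Smarca1 KO and WT it was above 0 for 8 of 9, with a median of 0.25. Over all genes the median was 0.010, and 52.8% were above 0. The 3 DKO libraries were all higher than the 3 Smarca1 KO libraries for 4 members, against 9.72 percent of all genes, and higher than the 3 WT libraries for 7 members, against 20.9 percent. The 3 Smarca1 KO libraries were all higher than the 3 WT libraries for 4 members, against 12.5 percent. No member was lower without overlap in any of the 3 comparisons, against 10.7, 20.4 and 13.6 percent of all genes in the same order.

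C1q is the recognition molecule of the classical complement pathway, assembled from A, B and C chains. The chains are encoded side by side on the minus strand of chromosome 4, C1qb at 136880129 to 136886187, C1qc at 136889804 to 136893065 and C1qa at 136895917 to 136898803 (GRCm38). C1qa in replicates 1 to 3 was 7.55, 5.38 and 7.77 CPM in DKO, 2.95, 3.19 and 3.24 CPM in WT, and 4.68, 3.38 and 4.59 CPM in Smarca1 KO. Every DKO library was above every Smarca1 KO library, and every Smarca1 KO library was above every WT library. The log2 difference of C1qa was 1.15 ± 0.18 (SE) for DKO against WT (edgeR adjusted p = 0.00636), a fold of 2.22. For DKO against Smarca1 KO it was 0.71 ± 0.18, which did not pass (adjusted p = 0.0553), and for Smarca1 KO against WT 0.44 ± 0.18 (adjusted p = 0.246).

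C1qc had the same ordering of groups. It was 7.90, 5.34 and 7.08 CPM in DKO, 3.30, 3.12 and 3.17 CPM in WT, and 4.81, 3.72 and 4.37 CPM in Smarca1 KO. No library of one group overlapped another group. The log2 difference was 1.08 ± 0.17 (SE) for DKO against WT (edgeR adjusted p = 0.00594), a fold of 2.12. It was 0.66 ± 0.16 for DKO against Smarca1 KO (adjusted p = 0.0549) and 0.43 ± 0.17 for Smarca1 KO against WT (adjusted p = 0.226), and neither passed. Without DKO replicate 2, the lowest of the 3, DKO against Smarca1 KO passed for both C1qa (adjusted p = 0.0415) and C1qc (adjusted p = 0.0366). In DESeq2 that comparison passed for both as well (adjusted p = 0.00884 and 0.0109). With the replicate number as a block it also passed for both (edgeR adjusted p = 0.0493 and 0.0427).

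C1qb did not pass edgeR's test over all 9 libraries in any comparison. It was 6.64, 5.28 and 6.18 CPM in DKO, 3.995, 4.54 and 3.53 CPM in WT, and 6.06, 4.33 and 3.90 CPM in Smarca1 KO. Smarca1 KO replicate 1 lay within the DKO range, while all DKO libraries were above all WT libraries. In log2 terms the difference was 0.34 ± 0.18 (SE) for DKO against Smarca1 KO (edgeR adjusted p = 0.373) and 0.59 ± 0.18 for DKO against WT (adjusted p = 0.0657). The second value passed when Smarca1 KO replicate 1 (adjusted p = 0.0355) or replicate 3 (adjusted p = 0.0387) was left out of the shared fit, though neither is in that comparison, and also in DESeq2 (adjusted p = 0.0290) and in an edgeR fit of only the 2 groups (adjusted p = 0.0250). For Smarca1 KO against WT it was 0.25 ± 0.19 (adjusted p = 0.485). As a share of the summed TPM of the 3 chains, C1qb made 29.5% to 33.2% in DKO, 30.6% to 39.2% in Smarca1 KO and 35.8% to 42.1% in WT. Thus the share of C1qb did not overlap between DKO and WT. C1qa and C1qb are counted from 1 transcript each, and no 31-base word of a C1q transcript occurred in another gene's transcripts.

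Cx3cr1, the receptor for the neuronal chemokine fractalkine, gave the smallest errors. Its gene lies on chromosome 9 at 119901616 to 120069879, minus strand, a span that overlaps Gorasp1, Csrnp1 and Xirp1 on the same strand and Wdr48 and Ttc21a on the other; 1.75% of its 31-base words occurred elsewhere. It was 16.2, 14.3 and 16.4 CPM in DKO, 8.43, 9.12 and 10.0 CPM in WT, and 9.23, 9.69 and 10.9 CPM in Smarca1 KO. The 3 DKO libraries were above all the others, and Smarca1 KO overlapped WT. The log2 difference was 0.66 ± 0.10 (SE) for DKO against Smarca1 KO (edgeR adjusted p = 0.00807), a fold of 1.58, and 0.77 ± 0.10 for DKO against WT (adjusted p = 0.00339). Between Smarca1 KO and WT it was 0.11 ± 0.10 (adjusted p = 0.587). Leaving out any 1 of the 9 libraries ended neither call.

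Csf1r, the receptor tyrosine kinase on which microglia depend for survival, was the most deeply read member with 4569 reads over the 9 libraries. It lies on chromosome 18 at 61100598 to 61132149, plus strand, and its end overlaps Hmgxb3 on the other strand. It was 19.5, 13.6 and 16.5 CPM in DKO, 13.9, 13.9 and 13.1 CPM in WT, and 15.8, 11.5 and 14.5 CPM in Smarca1 KO. The groups overlapped in all 3 comparisons, with replicate 2 lowest in both knockout groups. In log2 terms the difference was 0.24 ± 0.14 (SE) for DKO against Smarca1 KO (edgeR adjusted p = 0.423), 0.28 ± 0.14 for DKO against WT (adjusted p = 0.223) and 0.03 ± 0.15 for Smarca1 KO against WT (adjusted p = 0.923).

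P2ry12, the ADP receptor that guides microglial processes, lies on chromosome 3 at 59216272 to 59262871, minus strand, within Med12l on the other strand. The strand setting of the authors' counting is unknown here, so reads of Med12l cannot be told apart from it with certainty. P2ry12 was 3.94, 4.14 and 5.84 CPM in DKO, 2.64, 3.36 and 3.30 CPM in WT, and 3.38, 4.09 and 5.10 CPM in Smarca1 KO. Both knockout groups lay above WT with no overlap, and overlapped each other. None of the differences passed edgeR's test over all 9 libraries without a block. With the replicate number as a block, DKO against WT passed (edgeR adjusted p = 0.0449). The log2 difference was 0.16 ± 0.21 (SE) for DKO against Smarca1 KO (edgeR adjusted p = 0.756), 0.59 ± 0.21 for DKO against WT (adjusted p = 0.0909) and 0.43 ± 0.21 for Smarca1 KO against WT (adjusted p = 0.30).

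Trem2, a receptor for lipids and apoptotic cells, lies on chromosome 17 at 48346401 to 48354147, plus strand. It was 3.20, 2.75 and 2.92 CPM in DKO, 1.23, 1.63 and 1.86 CPM in WT, and 1.77, 1.84 and 1.42 CPM in Smarca1 KO. The DKO libraries lay above all the others, and Smarca1 KO overlapped WT. In log2 terms the difference was 0.81 ± 0.19 (SE) for DKO against Smarca1 KO (edgeR adjusted p = 0.0481), a fold of 1.76, and 0.92 ± 0.20 for DKO against WT (adjusted p = 0.0194), a fold of 1.89. For Smarca1 KO against WT it was 0.10 ± 0.20 (adjusted p = 0.821).

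These Trem2 calls were fragile. The gene had 648 reads in all, and a transcript with a retained intron took 31.9% of them, from 20.9% in Smarca1 KO replicate 1 to 61.7% in WT replicate 1. Over the protein-coding transcripts alone, a setting chosen after seeing this, the log2 difference was 0.80 for DKO against Smarca1 KO (edgeR adjusted p = 0.252) and 1.07 for DKO against WT (adjusted p = 0.0730), so neither was called. Leaving out any 1 of the 9 libraries ended the call against Smarca1 KO, with adjusted p from 0.0571 without WT replicate 1 to 0.134 without DKO replicate 3. Against WT the call was lost without WT replicate 1 (0.0804), WT replicate 2 (0.0726), DKO replicate 2 (0.0528) or DKO replicate 3 (0.0671).

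Tyrobp is the adaptor that carries the Trem2 signal into the cell, and lies on chromosome 7 at 30413760 to 30417585, plus strand. It was 2.95, 1.78 and 2.29 CPM in DKO, 1.56, 1.53 and 1.47 CPM in WT, and 2.42, 1.77 and 2.08 CPM in Smarca1 KO. Both knockout groups were above WT without overlap, and DKO overlapped Smarca1 KO. The log2 difference was 0.16 ± 0.21 (SE) for DKO against Smarca1 KO (edgeR adjusted p = 0.757), 0.62 ± 0.22 for DKO against WT (adjusted p = 0.0852) and 0.46 ± 0.22 for Smarca1 KO against WT (adjusted p = 0.287). The receptor therefore passed the test where its adaptor did not, but whether the 2 genes differed in their response was not tested.

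Aif1, which encodes the calcium-binding protein Iba1 used to stain microglia, lies on chromosome 17 at 35170991 to 35176068, minus strand. It was the least read member, with 471 reads. It was 1.52, 1.81 and 2.18 CPM in DKO, 1.54, 1.25 and 1.24 CPM in WT, and 1.25, 1.02 and 1.75 CPM in Smarca1 KO. All groups overlapped. In log2 terms the difference was 0.46 ± 0.24 (SE) for DKO against Smarca1 KO (edgeR adjusted p = 0.355), 0.45 ± 0.24 for DKO against WT (adjusted p = 0.236) and −0.01 ± 0.25 for Smarca1 KO against WT (adjusted p = 0.985). Its reads were divided among 7 transcripts, of which the main one took 49.4%.

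**Figure D2:**
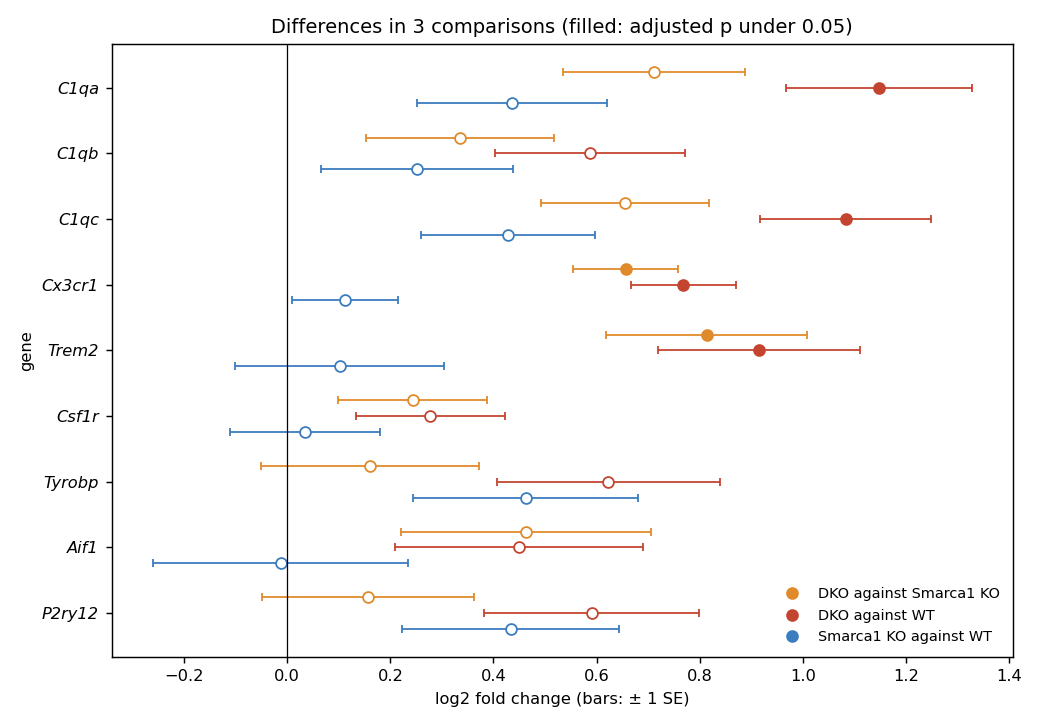
Log2 fold change of each of the 9 genes in the 3 comparisons (horizontal axis; bars are ± 1 SE), filled where the adjusted p was under 0.05. Filled points are Cx3cr1 and Trem2 for DKO against Smarca1 KO, and C1qa, C1qc, Cx3cr1 and Trem2 for DKO against WT; no point is filled for Smarca1 KO against WT.

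Some measurements moved with these counts. The Y-linked genes Ddx3y, Eif2s3y, Kdm5d and Uty summed to a log2 CPM of 7.90 to 7.95 in DKO, 7.98 to 8.06 in Smarca1 KO and 8.01 to 8.05 in WT. With that sum as a covariate, 0 of the 9 genes were called by edgeR in any comparison. Cx3cr1 was then at 0.34 against Smarca1 KO (adjusted p = 0.585) and 0.45 against WT (adjusted p = 0.668), and C1qa and C1qc at 0.83 and 0.86 against WT (adjusted p = 0.721 and 0.688). The covariate followed the groups (R² by group 0.809), so it and the genotype cannot be told apart. With both replicate 1 libraries of the knockout groups left out, which were rich in meninges genes, Cx3cr1 was at 0.58 against Smarca1 KO (adjusted p = 0.0555) and Trem2 at 0.80 (adjusted p = 0.151), so 0 of 9 were called there. Against WT 5 were called without them, C1qa, C1qc, Cx3cr1, Trem2 and P2ry12, the last at 0.70 (adjusted p = 0.0495).

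The proportions of the members to each other were read as well, as a description. Ratios of TPM within a library were taken, 6 in all, chosen after the values were seen, because the amount of RNA from microglia cancels in a ratio of 2 genes where both come from microglia alone, which was not tested. The numerators hold the members called in DKO and the denominators members that were not called, so higher ratios in DKO follow in part from that choice. With 3 libraries against 3, no test of a ratio could reach an adjusted p under 0.05. The summed C1q chains over Csf1r were 4.65, 4.87 and 5.28 in DKO, 4.07, 4.11 and 3.66 in Smarca1 KO, and 3.04, 3.24 and 3.10 in WT. The 3 groups did not overlap. The difference of means was 0.982 for DKO against Smarca1 KO, 1.80 for DKO against WT and 0.820 for Smarca1 KO against WT. Each had an exact two-sided permutation p of 0.1, the smallest that 3 libraries against 3 can give, and 0.164 after Benjamini-Hochberg adjustment over 18 tests.

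Summed C1q over Tyrobp was 3.07, 3.65 and 3.78 in DKO, 2.58, 2.61 and 2.53 in Smarca1 KO, and 2.67, 2.89 and 2.73 in WT. Here DKO was above both other groups, and Smarca1 KO was below WT. Trem2 over Csf1r was 0.643, 0.645 and 0.578 in DKO, 0.387, 0.488 and 0.257 in Smarca1 KO, and 0.186, 0.388 and 0.425 in WT. DKO was above both other groups without overlap, and these overlapped each other. Cx3cr1 over Csf1r overlapped between DKO and Smarca1 KO (exact permutation p = 0.2) and lay higher in DKO than in WT without overlap. Summed C1q over P2ry12 and over Aif1 overlapped between DKO and Smarca1 KO (exact permutation p = 0.5 and 0.7) and was higher in DKO than in WT without overlap. For DKO against Smarca1 KO the difference of C1q over Aif1 changed sign when only protein-coding transcripts were counted. The highest ratios to P2ry12 were those of replicate 1 in both knockout groups, 10.7 and 8.87.

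**Figure D3:**
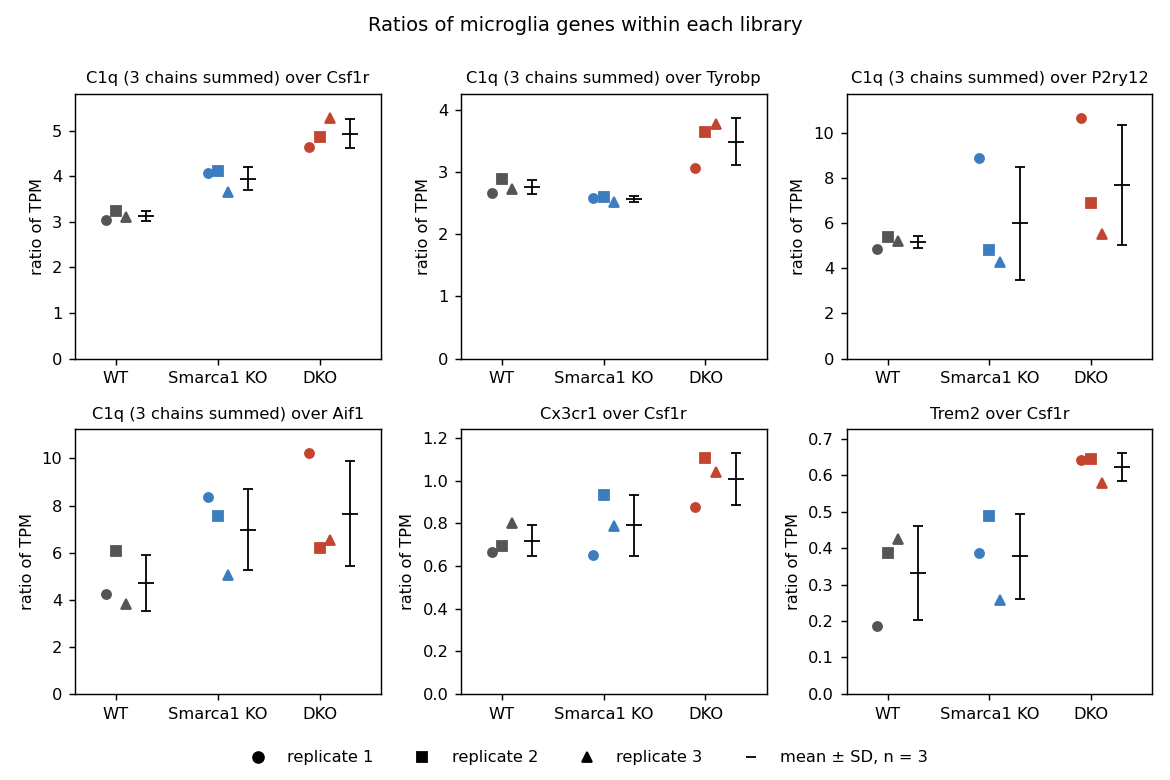
Ratios of TPM within each library (vertical axes from 0), by group; points are libraries, shaped by replicate number, and bars are mean ± SD (n = 3). C1q over Csf1r separates all 3 groups, from 3.04 to 3.24 in WT to 4.65 to 5.28 in DKO, while C1q over P2ry12 and over Aif1 overlap between Smarca1 KO and DKO.

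As 9 genes are few, 36 other genes of microglia and brain macrophages were listed, and all 36 passed the low-count filter. In DKO against Smarca1 KO the log2 difference was above 0 for 31, beside 51.1% of all genes, with a median of 0.32 beside 0.004. Of the 36, 3 were called up, beside 1.73 percent of all genes tested, and 0 down, beside 2.66 percent. The 3 were Mpeg1, a pore-forming protein of macrophages, at 0.83 ± 0.12 (SE, edgeR adjusted p = 0.00580), Lgmn, a lysosomal protease, at 0.31 ± 0.06 (adjusted p = 0.0303) and Lyz2, the macrophage lysozyme, at 1.25 ± 0.28 (adjusted p = 0.0374). Mpeg1 was 6.47, 5.05 and 6.41 TPM in DKO, 4.18, 4.05 and 3.87 TPM in WT, and 3.60, 2.96 and 3.52 TPM in Smarca1 KO. The 3 DKO libraries thus lay above all 6 others. Lyz2 shares 32.8% of its 31-base words with other genes, chiefly its near copy Lyz1, and its counts are uncertain for that reason. The call of Lyz2 against Smarca1 KO was lost in 13 of 19 alternatives and that of Lgmn in 11, against 1 for Mpeg1. Leaving out 1 library raised the adjusted p of Lyz2 to between 0.0635 and 0.117 for any library except DKO replicate 3, and that of Lgmn to between 0.0614 and 0.0949 for any except Smarca1 KO replicate 3 and DKO replicate 2.

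Against WT 6 of the 36 were called up, beside 5.61 percent of all genes, and 1 down, beside 6.35 percent. The median was 0.40 beside 0.008 over all genes. Ly86, a partner of a Toll-like receptor relative, was at 1.60 ± 0.31 (SE, edgeR adjusted p = 0.0148), Lgmn at 0.43 ± 0.06 (adjusted p = 0.00554) and Coro1a, an actin regulator of leukocytes, at 0.38 ± 0.06 (adjusted p = 0.00666). Mpeg1 at 0.58 (adjusted p = 0.0160) and Lyz2 at 1.11 (adjusted p = 0.0309) rose here as well. So did the antibody receptor Fcgr3 at 0.85 (adjusted p = 0.0461), named after its value was seen, whose call was lost in 10 of 19 alternatives and without any 1 of the 6 WT and DKO libraries (adjusted p from 0.0627 to 0.151). Without 1 library the calls against WT of Mpeg1 (any WT library or DKO replicate 3, adjusted p up to 0.0689), Ly86 (WT replicate 1 or 3 or DKO replicate 3, up to 0.0667) and Lyz2 (any WT library or DKO replicate 1 or 2, up to 0.111) were also lost. The fall was in Sall1, at −0.47 ± 0.08 (adjusted p = 0.0106, or 0.0506 without WT replicate 1), a transcription factor of microglia that neural progenitors also express. Sall1, Coro1a and Lgmn averaged 49.9, 52.9 and 40.5 TPM over the 9 libraries, above the 9 members, and the cells that gave their RNA were not resolved. Between Smarca1 KO and WT 0 of the 36 were called by edgeR, beside 0.336 percent of all genes, and 0 by limma voom. DESeq2 called 1 of the 36, beside 727 of 13624 genes in all. There 2 had an unadjusted p under 0.05, beside 18.9 percent, and Sall1 had the smallest p at −0.36 (edgeR adjusted p = 0.107).

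**Figure D4:**
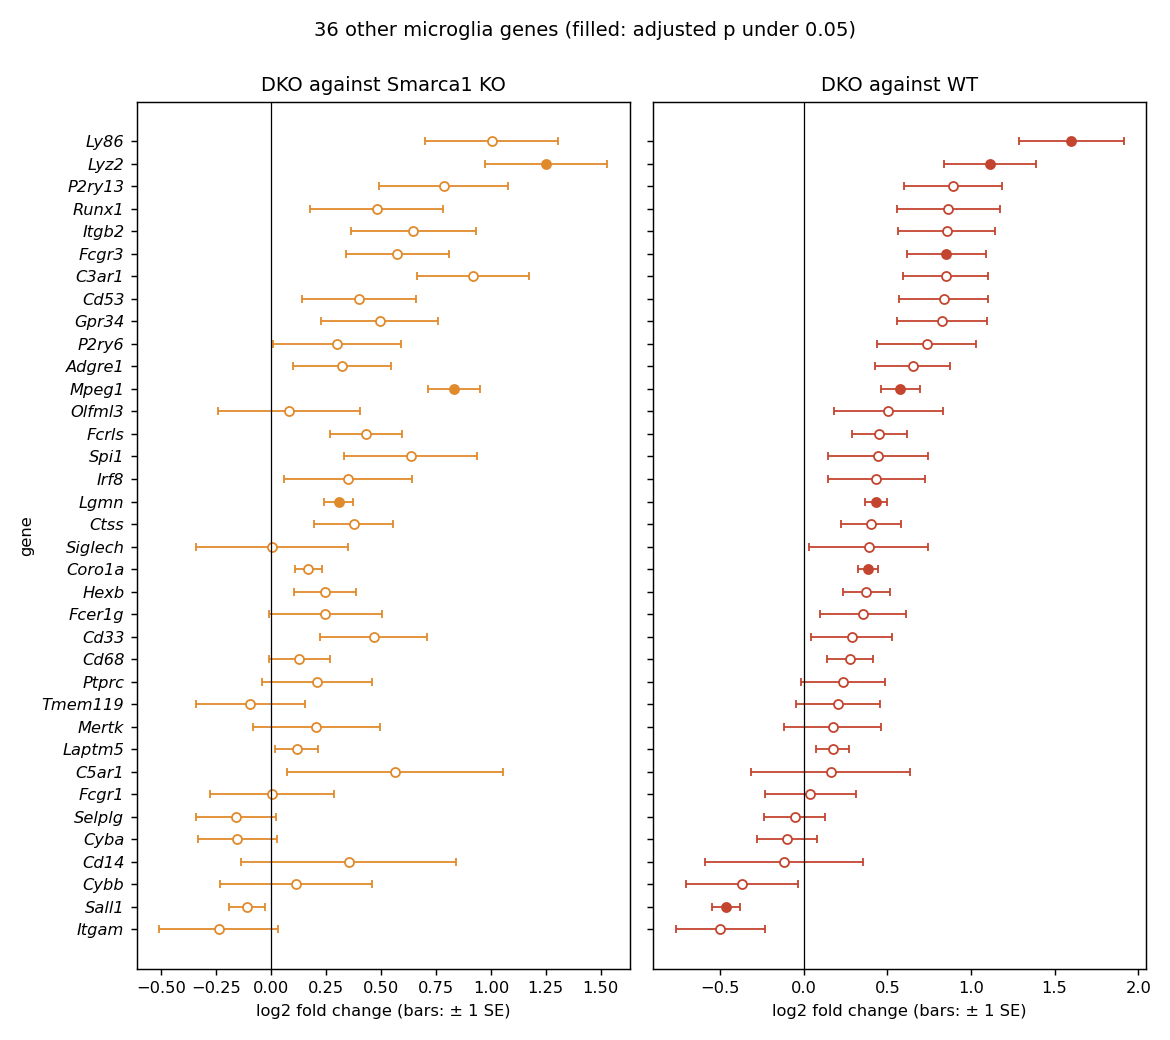
Log2 fold change (horizontal axes; bars are ± 1 SE) of the 36 other microglia genes for DKO against Smarca1 KO (left) and against WT (right), filled where the adjusted p was under 0.05. Most points lie above 0, 31 on the left, and Mpeg1, Lgmn and Lyz2 are filled on both sides.

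Macrophages at the borders of the brain share many of these genes, so 12 of their markers were read as well. Of the 9 tested, 0 were called by edgeR, DESeq2 or limma voom in any comparison. Over all genes edgeR called 4.39 percent in DKO against Smarca1 KO, 12 percent in DKO against WT and 0.336 percent in Smarca1 KO against WT. At such shares 0 of 9 does not show that these genes were unchanged. An unadjusted p under 0.05 was found for 1, Ms4a7 in DKO against WT, beside 31 percent of all genes. Ms4a7 had the smallest p in both DKO comparisons, at 0.63 ± 0.44 (SE, edgeR adjusted p = 0.505) against Smarca1 KO and 1.32 ± 0.47 (adjusted p = 0.0938) against WT. Pf4 had it for Smarca1 KO against WT, at 0.78 ± 0.39 (adjusted p = 0.313). The summed level of the 12 was 63.5 TPM in Smarca1 KO replicate 1 and 63.4 TPM in DKO replicate 1, against 33.4 to 41.9 TPM in the other 7 libraries. In DKO replicates 1 to 3 the border macrophage sums were 63.4, 35.7 and 36.6 TPM, beside 87.3, 67.0 and 86.2 TPM of the 9 microglia genes. In Smarca1 KO they were 63.5, 33.4 and 36.3 TPM, beside 64.9, 50.4 and 60.9 TPM. In WT they were 41.9, 36.3 and 36.3 TPM, beside 48.7, 49.6 and 48.9 TPM. The part of border macrophages in the differences of the 9 genes was not tested. Of the 12, none was at 0 in all libraries, and Cbr2 had 5 reads in all.

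Apart from Kit, markers of other leukocytes were near the floor. The monocyte gene Ly6c2 had 8 reads over the 9 libraries, the T cell gene Cd3e 3, Nkg7 of cytotoxic lymphocytes 3 and Elane of neutrophils 5. Only 3 of the 12 could be tested. Among these the growth factor receptor Kit averaged 35.3 TPM with 24269 reads in all, while the mast cell gene Cpa3 had 13 reads. The cells that gave the Kit RNA were not resolved, so its values do not measure leukocytes. In DKO Kit fell by 0.26 against Smarca1 KO (edgeR adjusted p = 0.0134) and by 0.22 against WT (adjusted p = 0.0173), 1 of 3 each, beside 2.66 and 6.35 percent of all genes called down. These calls were lost without DKO replicate 2 or 3 (adjusted p up to 0.0617 and 0.0718), and the second also without WT replicate 1 or 2. The neutrophil gene S100a8, with 28 reads in all, was 2.83 TPM in DKO replicate 1, 0.841 TPM in replicate 2 and at 0 in replicate 3. Summed levels of the 12 were 31.6 to 39.0 TPM in DKO, 37.9 to 41.0 TPM in Smarca1 KO and 35.5 to 40.1 TPM in WT, nearly all of it Kit. The part of these cells in the result was not tested.

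The 9 red blood cell genes summed to 2834 to 4168 TPM in DKO, 3091 to 5419 TPM in Smarca1 KO and 4579 to 6213 TPM in WT, lower in DKO than in WT. Of these, 0 were called by edgeR in DKO against Smarca1 KO (DESeq2 0, limma voom 0, 1 at an unadjusted p under 0.05). Against WT edgeR called 1, DESeq2 3, beside 2877 of 15457 genes, and limma voom 0, with 4 at an unadjusted p under 0.05. The log2 difference there was above 0 for 0 of 9, with a median of −0.60 beside 0.008 over all genes. The edgeR call was Hba-a1, which fell by 0.83 (adjusted p = 0.0498). It was lost without any 1 of 7 libraries, Smarca1 KO replicates 1 and 3 excepted (adjusted p up to 0.155). Of the 31-base words of Hba-a1, 75.5% occurred in other genes, chiefly Hba-a2, and its counts are uncertain for that reason. The 12 endothelium and pericyte genes summed to 142.3 to 225.6 TPM, and 0 of 12 were called by any of the 3 tools in any comparison, with 1 at an unadjusted p under 0.05, Rgs5 in Smarca1 KO against WT. For the 13 meninges genes 0 were called by any of the 3 tools, with 1 at an unadjusted p under 0.05, Fbln1 in Smarca1 KO against WT. Over all genes edgeR called 4.39 percent in DKO against Smarca1 KO, 12 percent in DKO against WT and 0.336 percent in Smarca1 KO against WT. An unadjusted p under 0.05 was found for 18.4, 31 and 18.9 percent in the same order. The part of blood, vessels and meninges in the differences of the 9 genes was not tested.

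**Figure D5:**
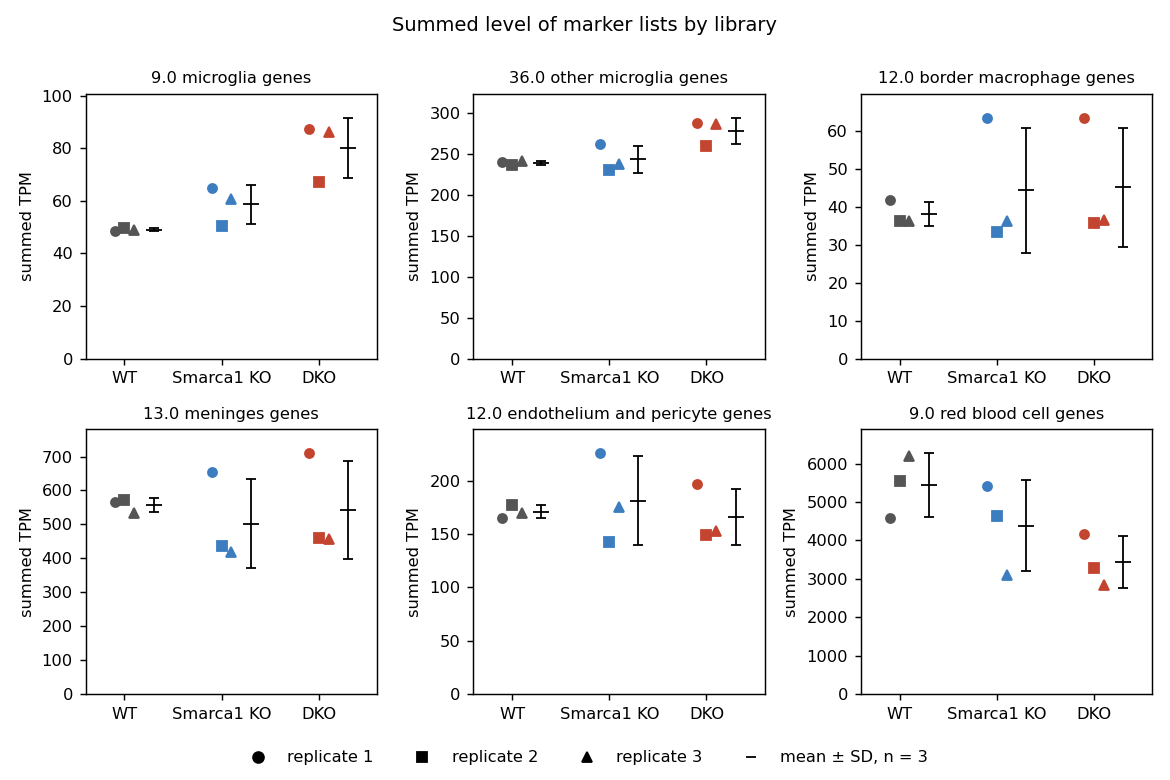
Summed TPM (vertical axes from 0) of 6 marker lists by group; points are libraries, shaped by replicate number, and bars are mean ± SD (n = 3). The 9 microglia genes are at 67.0 to 87.3 TPM in DKO against 48.7 to 49.6 TPM in WT, while border macrophage and meninges genes are high in replicate 1 of both knockout groups.

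No gene among the ligands and signals of these receptors passed the test. A list of 11 was read, among them Csf1 and Il34, the ligands of Csf1r, Cx3cl1, the ligand of Cx3cr1, and the Tgfb1 pathway that shapes microglial identity. By edgeR 0 of the 11 were called in any comparison. At an unadjusted p under 0.05 there were 1 for DKO against Smarca1 KO, 3 for DKO against WT and 4 for Smarca1 KO against WT. Over all genes, in that order, 4.39, 12 and 0.336 percent were called and 18.4, 31 and 18.9 percent had an unadjusted p under 0.05. DESeq2 called 0, 1 and 1 in that order, and limma voom 0, 1 and 0. Over all genes DESeq2 called 1183 of 15763, 2877 of 15457 and 727 of 13624. Smad3, which carries the Tgfb1 signal, had the smallest p for DKO against Smarca1 KO, at 0.35 ± 0.12 (SE, edgeR adjusted p = 0.155), and for Smarca1 KO against WT, at −0.42 ± 0.12 (adjusted p = 0.147). Csf1 had it for DKO against WT, at 0.29 ± 0.08 (adjusted p = 0.0514).

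The other Csf1r ligand, Il34, is named after its values were seen. It was 0.415, 0.454 and 0.374 TPM in WT, 1.17, 0.845 and 1.23 TPM in Smarca1 KO and 1.09, 0.965 and 0.970 TPM in DKO. Both knockout groups were above WT without overlap. With 183 reads in all, its log2 difference was 1.27 ± 0.50 (SE) for Smarca1 KO against WT (edgeR adjusted p = 0.225) and 1.16 ± 0.49 for DKO against WT (adjusted p = 0.141), and neither passed. For DKO against Smarca1 KO it was −0.10 ± 0.45 (adjusted p = 0.942).

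Of 13 partners of Trem2 and Tyrobp, 10 were tested. By edgeR 1 was called up in DKO against Smarca1 KO, beside 1.73 percent of all genes, and 1 in DKO against WT, beside 5.61 percent. Vav1, an exchange factor of blood cells that acts below Tyrobp, was at 0.74 ± 0.18 (SE, edgeR adjusted p = 0.04996) for DKO against Smarca1 KO, a call lost in 16 of 19 alternatives and without any 1 library (adjusted p from 0.0808 to 0.152). Clu, a lipoprotein that Trem2 binds, was at 0.65 ± 0.14 for DKO against WT (adjusted p = 0.0195), and was not called without any 1 WT library or DKO replicate 3 (adjusted p up to 0.0839). It was 35.4, 24.5 and 34.7 TPM in DKO, 21.8, 20.8 and 19.9 TPM in WT, and 29.1, 25.1 and 32.9 TPM in Smarca1 KO. Both knockout groups were above WT, and overlapped each other. The log2 difference was above 0 for 9 of 10 against Smarca1 KO, beside 51.1% of all genes, with a median of 0.19 beside 0.004. Against WT it was above 0 for 10 of 10, beside 51.7% of all genes, with a median of 0.37 beside 0.008. Between Smarca1 KO and WT 0 of 10 were called by edgeR, beside 0.336 percent of all genes, and 0 by limma voom. DESeq2 called 1 of the 10, beside 727 of 13624 genes in all. In edgeR 1 had an unadjusted p under 0.05, beside 18.9 percent of all genes.

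Of the other complement genes, 1 passed the test. Of 13 listed, 11 were tested, including the proteases C1ra and C1s1 that bind C1q, and the median log2 difference was −0.02 for DKO against Smarca1 KO and −0.04 for DKO against WT. Masp1, a protease of the lectin pathway, fell by 0.32 against WT (edgeR adjusted p = 0.0203), 1 of 11 beside 12 percent of all genes called there. It was the only complement gene of the list called by edgeR. That call was lost without WT replicate 1 or 2 or DKO replicate 2 or 3 (adjusted p up to 0.0757). It was at −0.24 against Smarca1 KO (adjusted p = 0.0861). For DKO against Smarca1 KO 0 of 11 were called by edgeR, 1 by DESeq2 and 0 by limma voom, with 4 at an unadjusted p under 0.05. Over all genes edgeR called 4.39 percent there, DESeq2 called 1183 of 15763, and 18.4 percent had an unadjusted p under 0.05 in edgeR. For Smarca1 KO against WT the counts of the list were the same by each tool, with 1 at an unadjusted p under 0.05, beside 18.9 percent of all genes. Over all genes edgeR called 0.336 percent there, and DESeq2 called 727 of 13624. Cd59a, an inhibitor of the membrane attack complex, had the smallest p there at 0.69 ± 0.18 (SE, edgeR adjusted p = 0.138).

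Interferon genes were read because microglia respond to interferon. Ifit2 was at 0.88 ± 0.12 (SE, edgeR adjusted p = 0.00550) and Ifit3 at 1.67 ± 0.39 (adjusted p = 0.0441) for DKO against Smarca1 KO. That is 2 of 12 tested genes called up and 0 down, beside 1.73 and 2.66 percent of all genes. The median was 0.61 beside 0.004 over all genes. Against WT Ifit2 was called at 0.70 ± 0.12 (edgeR adjusted p = 0.00933) and the other 11 were not, beside 5.61 percent of all genes called up. Of the 31-base words of Ifit3, 61.8% occurred in other genes, and its counts are uncertain for that reason. Its call was lost without any 1 library (adjusted p from 0.0713 to 0.141), and the Ifit2 call against WT without WT replicate 1 (0.0505). Ifit2 was 9.24, 10.3 and 10.2 TPM in DKO, 5.55, 6.64 and 5.85 TPM in WT, and 4.45, 6.57 and 5.10 TPM in Smarca1 KO, so that DKO lay above all other libraries. The 16 listed genes summed to 43.6 to 64.7 TPM in DKO and 31.9 to 40.9 TPM in the other 6 libraries.

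The genes whose log2 CPM tracked the mean of the 9 members most closely were sought among 13970 genes. Pearson's r over the 9 libraries was 0.977 for Ctsd, 0.975 for Pde6d, 0.973 for Uchl3, 0.970 for Lgmn, 0.969 for Coro1a, 0.969 for Fam184a, 0.968 for Tomm40l and 0.966 for Cnpy1. These correlations are descriptions over libraries that share the group differences and are the highest of many. Ctsd, the lysosomal protease cathepsin D, was 146.7, 136 and 154.5 CPM in DKO, 101.2, 103.7 and 104.4 CPM in WT, and 111.7, 106.5 and 113.6 CPM in Smarca1 KO. Its log2 difference was 0.40 for DKO against Smarca1 KO and 0.50 for DKO against WT. The 8 genes were chosen for tracking a mean that was itself higher in DKO. A difference in that direction therefore follows in part from the choice, and no p is given. Among the members themselves, r with the mean of the other 8 ran from 0.588 for Aif1 and 0.617 for P2ry12 to 0.980 for C1qc and 0.997 for C1qa.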

How the data were processed

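The authors deposited 1 table per library with estimated counts (reads divided among the transcripts they match), TPM and transcript lengths, per the file headers. They used Salmon 1.4.0 on mm10, and DESeq2 in no stated role, per the submitters' processing notes. Not given in the sources used here were the index, annotation release and library type. The deposited estimated counts were summed to genes of GENCODE M21 (569 of 116546 transcripts did not match), rounded and tested in 1 fit over all 9 libraries with edgeR 4.0.16 (limma 3.58.1, R 4.3.3). TMM, filterByExpr and the quasi-likelihood F test were used, with Benjamini-Hochberg adjustment over 15773 genes. Calls are at an adjusted p under 0.05. The deposited TPM were summed per gene for levels and ratios. Libraries held 27466046 to 46007527 counts over genes. The rounded counts of any 2 differed in at least 19215 genes, which shows only that no 2 libraries are copies.

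The members and all gene lists were chosen with earlier results of these data known, so counts within a list are descriptions. All 9 members are named. From each other list, up to 4 called genes with the smallest p per comparison are named or, where none was called, the gene with the smallest p. The 8 genes most alike are those with the highest r among tested genes whose mean log2 CPM was 0 or more. Promoters are from RefSeq, GRCm38.p6. Alternatives were RLE and upper quartile scaling, DESeq2 1.42.0, limma voom, no filter on low counts, 2 groups only, the replicate number as a block, effective-length offsets, a Y-linked covariate, leaving out libraries, and protein-coding transcripts only.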

Additional observations from a re-analysis of the deposited data

How the results depend on the processing

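Depth limits the members: 471 to 4569 reads each over 9 libraries. For DKO against Smarca1 KO, 2 members were called. DESeq2 called 4; no filter on low counts, only the 2 groups compared, effective-length offsets and protein-coding transcripts alone called 1 each; the Y-linked covariate, and leaving out Smarca1 KO 1 with DKO 1, called 0. Leaving out 1 library gave 1 to 3. Against WT 4 were called, 0 with the Y-linked covariate and 3 to 5 without 1 library. For Smarca1 KO against WT the count was 0 under every alternative. The cause of these shifts was not tested.

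Replicate numbers gave no clear pairing of WT with either knockout group. Same-numbered deviations correlated at −0.039 to 0.033 for WT with Smarca1 KO and −0.063 to −0.027 for WT with DKO. For Smarca1 KO with DKO they correlated at 0.350, −0.035 and 0.106 in replicates 1 to 3, so a pairing of these 2 groups is not settled. With 6 libraries a comparison, 3, 0 and 2 correlated best with their own number, in the same order. With the replicate block 3, 5 and 0 members were called (DKO against Smarca1 KO, DKO against WT, Smarca1 KO against WT), and 529, 1745 and 29 genes in all. In the first, Trem2 was lost (adjusted p = 0.0927) and C1qa (0.0493) and C1qc (0.0427) were gained, and in the second P2ry12 was gained (0.0449).

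Over all genes 692 were called in DKO against Smarca1 KO, but 1183 by DESeq2, 181 with 2 groups, 389 with length offsets, 9 with the Y-linked covariate, 398 without Smarca1 KO 1 and DKO 1, and 286 to 795 without 1 library. Against WT 1887 were called, but 2877 by DESeq2, 3443 with 2 groups, 7 with the Y-linked covariate and 450 to 3178 without 1 library. For Smarca1 KO against WT 53 were called, 727 by DESeq2, 90 without the filter, 607 without Smarca1 KO 1 and DKO 1, and 14 to 72 without 1 library.

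Some log2 differences that had not passed changed sign. With the Y-linked covariate, Tyrobp was −0.0061, Aif1 −0.0148 and P2ry12 −0.333 for DKO against Smarca1 KO, and Aif1 −0.0519 and the meninges gene Crabp2 0.121 for DKO against WT. Leaving out 1 library gave, for DKO against Smarca1 KO, −0.0341 to 0.315 for Tyrobp (lowest without DKO 1), −0.0481 to 0.318 for P2ry12 (lowest without DKO 3) and −0.726 to 0.0726 for the hindbrain gene Gbx2 (highest without DKO 3). For Smarca1 KO against WT it gave −0.0584 to 0.237 for Trem2 (lowest without WT 1), −0.0703 to 0.153 for Csf1r (lowest without Smarca1 KO 1), −0.240 to 0.138 for Aif1 (above 0 without WT 1, Smarca1 KO 1 or Smarca1 KO 2) and −0.0012 to 0.0665 for Kit (lowest without WT 3). Without Smarca1 KO 1 and DKO 1, Csf1r was −0.0697 and Aif1 0.0354 there, and Aif1 was 0.0046 with coding transcripts. C1q over Aif1 for DKO against Smarca1 KO went from 0.671 to −1.23 with coding transcripts, added after seeing the data.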
